A study of Mus musculus with 8 samples.

Results

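The genes of vitamin D reception and metabolism were followed in mouse mammary tumors treated with the vitamin D analog calcipotriol. The set held 10 genes of the 55414 listed per tumor, and they were chosen by name as the known receptor, partners and enzymes of the pathway that the drug enters: Vdr, Rxra, Rxrb, Rxrg, Cyp27a1, Cyp2r1, Cyp27b1, Cyp24a1, Trpv6 and Pdia3. Bulk RNA-Seq had been carried out on 4 EtOH-treated and 4 calcipotriol-treated tumors, and an estimated read count per gene was deposited for each. The tumors were grown from the PyMt cell line, a single line that came from an MMTV-PyMt mouse, in which the mammary tumor virus promoter drives the polyoma middle T oncogene. The cells were implanted into a mammary fat pad of WT C57BL/6 female mice 6 to 8 weeks of age, which have an intact immune system. Calcipotriol (20 nmol) in EtOH, or EtOH alone, was applied to the skin over the tumor every 2 days from 2 days after implantation, and tumors were taken 24 hours after the last application. Tumors are named by their labels, EtOH 1 to 4 and calcipotriol 1, 5, 6 and 7.

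Active vitamin D, and analogs such as calcipotriol, bind the vitamin D receptor Vdr, which pairs with a retinoid X receptor (Rxra, Rxrb or Rxrg) on DNA and turns target genes on or off. Vitamin D from skin or diet is hydroxylated first by Cyp2r1 or Cyp27a1 and then by Cyp27b1 to the active hormone, and Cyp24a1 breaks down the hormone and its analogs. Cyp24a1 and the calcium channel gene Trpv6 are classic targets of the receptor, whereas Pdia3 encodes a disulfide isomerase of the endoplasmic reticulum that has also been described as a membrane binding protein for the hormone.

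Library totals ranged from 19685419 to 25084713 counts. Levels are given as CPM (counts relative to the library total, after TMM scaling, which aligns the bulk of genes between libraries), and a fold change is calcipotriol over EtOH on the log2 scale. The libraries did not form 2 even groups. The log2 CPM of EtOH 1 correlated with that of EtOH 2 at r = 0.959 across genes, and EtOH 3 with EtOH 4 at 0.958, but between these pairs r was 0.919 to 0.934. Calcipotriol 5, 6 and 7 correlated with each other at 0.958 to 0.977 and with calcipotriol 1 at 0.931 to 0.945. The labels name the cell type as epithelial, and Krt8 and Krt18, keratins of luminal epithelium, had 5403 to 13665 counts in every tumor, whereas Epcam and Krt19 had 0 counts in EtOH 1 and EtOH 2. Both keratins were lower with calcipotriol: Krt8 was at 285 to 516 against 523 to 652 CPM, and Krt18 at 260 to 348 against 462 to 665 CPM. Of 7 luminal markers 6 were tested, 4 with positive and 2 with negative fold changes. Cldn3 had 4 to 16 counts with EtOH and 95 to 200 with calcipotriol, and Cldn7 at most 10 counts. Where leaving out these libraries changed a call among the 10 genes or the receptor targets named below, the value without them is given. In a bulk tumor, fewer cells of a type and less RNA per cell cannot be told apart.

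Vdr was expressed in all tumors and was on average higher with calcipotriol, but the difference did not pass the adjusted threshold. Its level was 68.5, 49.99, 29.2 and 30.5 CPM in EtOH 1 to 4, and 56.9, 81.6, 77.7 and 80.1 CPM in calcipotriol 1, 5, 6 and 7. Calcipotriol 5, 6 and 7 lay above every EtOH-treated tumor, but calcipotriol 1 lay below EtOH 1, so the groups overlapped. The mean was 44.6 ± 18.6 CPM (SD, n = 4) with EtOH and 74.1 ± 11.5 CPM (n = 4) with calcipotriol. This was a log2 fold change of 0.73 (95% interval 0.15 to 1.31, edgeR adjusted p = 0.171 over 14458 genes). Each tumor had 692 to 1889 counts of Vdr, so counting error was small beside the spread between tumors.

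The size of the Vdr difference depended on which EtOH-treated pair it was measured against. EtOH 1 and 2 were above EtOH 3 and 4. Without EtOH 1 and 2 the log2 fold change was 1.31 (0.90 to 1.73), with an edgeR adjusted p of 0.018, past both thresholds used here (adjusted p under 0.05, log2 fold change of 1 or more in either direction), as were 1.14% of all genes in that fit. Without EtOH 3 and 4 it was 0.32 (-0.13 to 0.77), with an edgeR adjusted p of 0.366. Leaving out 1 tumor at a time kept it between 0.58 and 1.02, higher with calcipotriol each time, with edgeR adjusted p from 0.0658 without EtOH 1 to 0.332 without calcipotriol 6. The summed skeletal muscle and endothelial markers also divided the EtOH-treated tumors into these pairs, though not every single marker did. The 8 skeletal muscle markers summed to 4.67 to 4.91 CPM in EtOH 1 and 2 and 47.1 to 54.2 CPM in EtOH 3 and 4, against 2.15 to 8.89 CPM with calcipotriol, and Ckm and Myh4 were at 0 in EtOH 1 and 2. The 7 endothelial markers summed to 278 and 306 CPM in EtOH 1 and 2, 138 and 133 CPM in EtOH 3 and 4, and 51.1 to 108 CPM with calcipotriol. Endothelial Kdr (15.3, 12.7, 15.7 and 12.7 CPM in EtOH 1 to 4) and Tek (5.30, 2.58, 2.59 and 3.57 CPM) did not divide by pair. Muscle Myh1 did so only slightly (3.70, 3.07, 4.17 and 4.455 CPM). The part of these cell types in the Vdr difference was not tested.

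**Figure D1:**
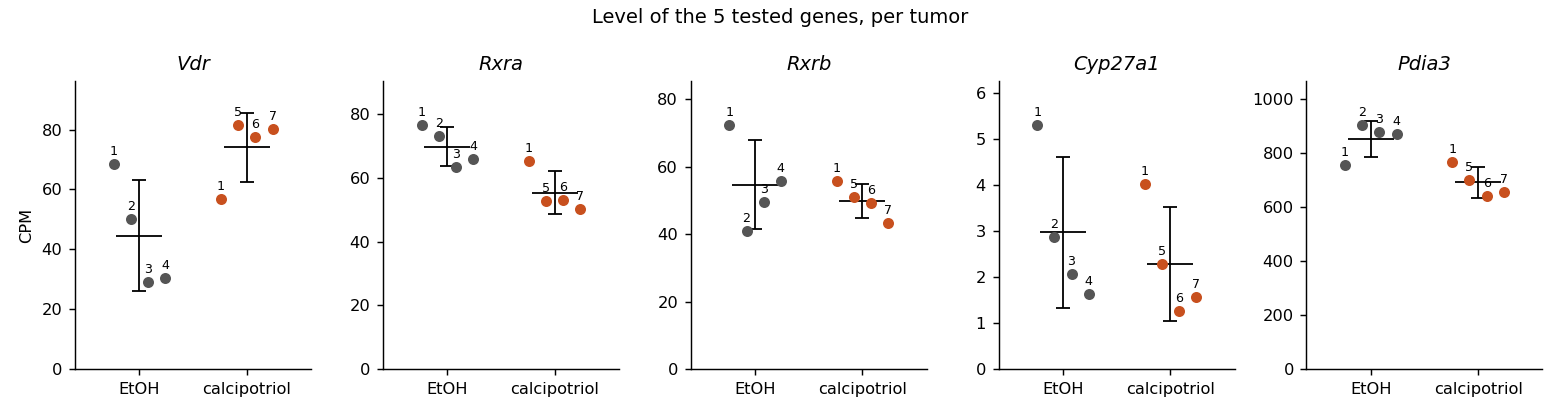
CPM of Vdr, Rxra, Rxrb, Cyp27a1 and Pdia3 in each tumor (linear axes from 0), with points numbered by replicate and bars showing the mean and SD of 4 tumors. Vdr reached 77.7 to 81.6 CPM in calcipotriol 5, 6 and 7, while calcipotriol 1 at 56.9 CPM fell below EtOH 1 at 68.5 CPM.

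The Vdr gene lies on chromosome 15 (97854425 to 97910630, minus strand, GRCm38). The 250 bases before the start site that RefSeq gives for it (GRCm38.p6, minus strand, chr15:97908297-97908546) are shown because Vdr is the receptor for the drug. In GENCODE M21 this stretch falls in an intron of longer Vdr transcripts, apart from a few bases that the shorter transcript includes in its first exon. Capitals mark its 3 GC boxes (GGGCGG on either strand), the short sequence bound by Sp1-type factors.

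Vdr promoter: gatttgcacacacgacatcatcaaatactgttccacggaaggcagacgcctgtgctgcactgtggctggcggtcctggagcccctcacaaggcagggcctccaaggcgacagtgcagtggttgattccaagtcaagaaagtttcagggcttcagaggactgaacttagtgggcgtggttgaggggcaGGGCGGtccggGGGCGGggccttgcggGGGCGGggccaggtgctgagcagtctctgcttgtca

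At least 3 GC boxes were found in 7.69% of the 32851 mouse promoter windows of this length, and in 3 of the 12 windows that RefSeq lists for 9 of the 10 genes, 1 each for Vdr, Rxra and Rxrb. Cyp24a1 had no entry. The direct repeat that the receptor pair is known to bind (AGGTCA, any 3 bases, then AGGTCA again, on either strand) was searched in the same windows. For this search each window also took in the 50 bases after the start site. With at most 2 mismatches the repeat was in 0 of the 12 windows and in 3.06% of all windows. These are matches of letters only.

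Among the partners, Rxra and Rxrb were both expressed at levels like that of Vdr, and Rxrg was nearly absent. Rxra, the most widely expressed retinoid X receptor, was at 76.7, 73.3, 63.4 and 66.1 CPM in EtOH 1 to 4 and at 65.4, 52.7, 53.1 and 50.3 CPM in calcipotriol 1, 5, 6 and 7. Calcipotriol 5, 6 and 7 were below all EtOH-treated tumors, and calcipotriol 1 was within their range. Its log2 fold change was -0.33 (-0.62 to -0.05, edgeR adjusted p = 0.199), and it was negative in all of the other fits run, from -0.44 to -0.22. Rxrb was at 72.4, 41.1, 49.6 and 55.8 CPM with EtOH and at 55.7, 51.1, 49.3 and 43.3 CPM with calcipotriol. The calcipotriol-treated tumors fell inside the range of the EtOH-treated ones. Its log2 fold change of -0.13 (-0.52 to 0.25, edgeR adjusted p = 0.737) became 0.032 without EtOH 1, the tumor with the highest level. Rxrg, a form known from muscle and brain, had 4 counts in EtOH 3 and 0 in the other tumors, where a count of 0 allows up to 0.119 to 0.146 CPM. The muscle markers were high in EtOH 3 and also in EtOH 4, which had 0 counts of Rxrg. The part of muscle in the Rxrg counts was not tested.

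**Figure D2:**
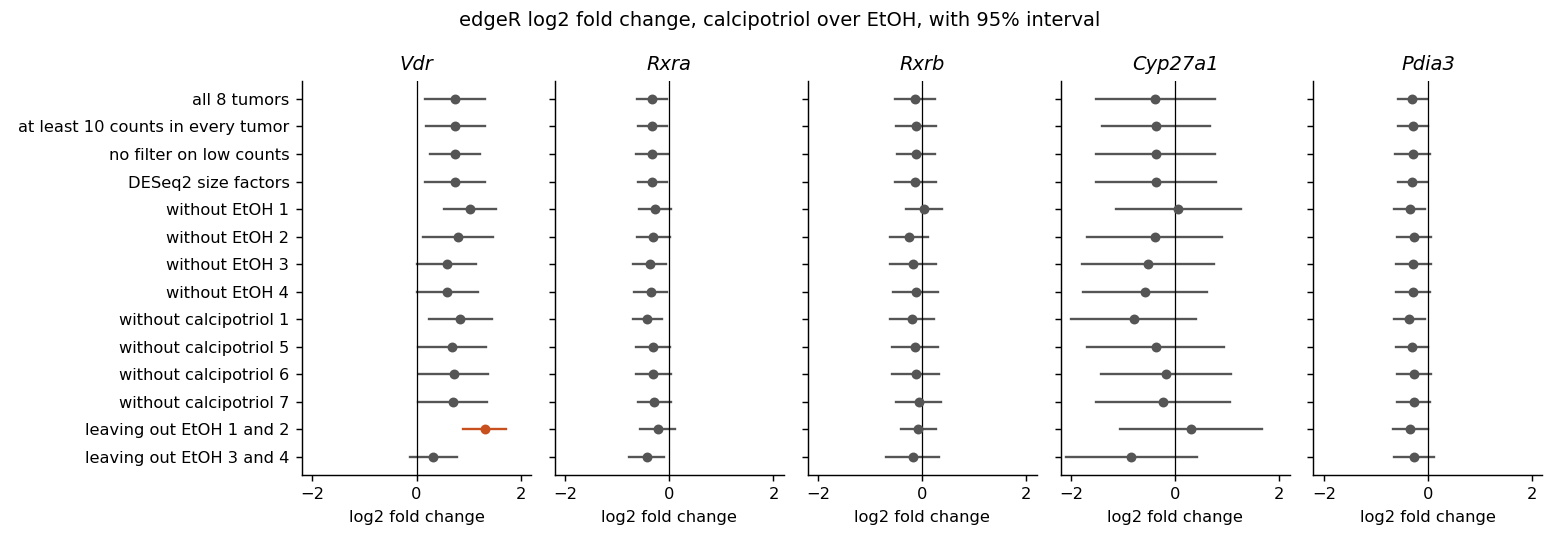
edgeR log2 fold change of the 5 tested genes, calcipotriol over EtOH, with its 95% interval (horizontal bars), for all 8 tumors and for 13 other settings (rows); the zero line is black and orange marks a value past both thresholds. Vdr was positive in every row and orange only without EtOH 1 and 2 (1.31), and Rxrb and Cyp27a1 crossed zero without EtOH 1.

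Measured per length of gene (CPM per kilobase of merged exons), Rxra made up 48.6% ± 5.58 (SD, n = 4) of the summed RXR level with EtOH and 44.7% ± 1.53 (n = 4) with calcipotriol. Rxrb made up nearly all of the rest, and its share ran from 43.5% to 57.2% over the tumors. With the length of the longest transcript in place of merged exons, the Rxra share was 41.1% and 37.3%, and EtOH 2, the only tumor with more Rxra than Rxrb on merged exons, then had a share of 48.9%. The level of Vdr over that of Rxra plus Rxrb, per kilobase, was looked at after the values were seen and is a description. It was 0.376, 0.373, 0.215 and 0.207 in EtOH 1 to 4 and 0.388, 0.642, 0.621 and 0.705 in calcipotriol 1, 5, 6 and 7. All calcipotriol-treated tumors lay above all EtOH-treated tumors, although the nearest values, 0.376 and 0.388, were close.

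**Figure D3:**
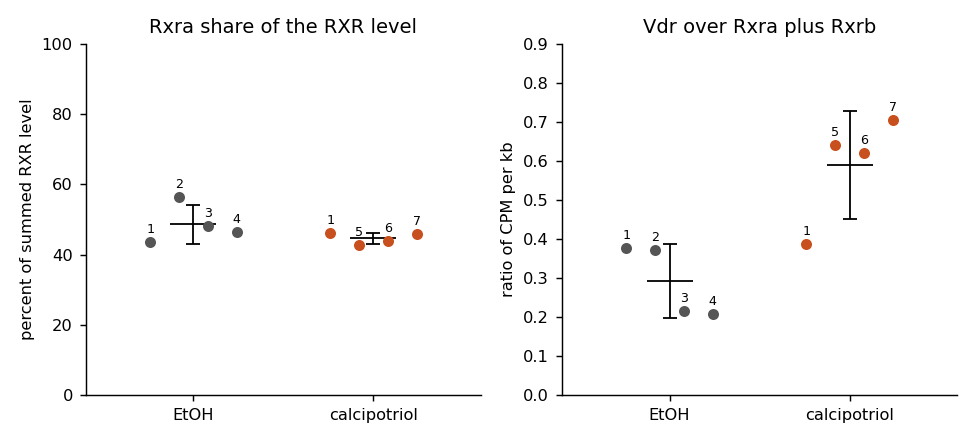
Share of Rxra in the summed RXR level (percent, left) and level of Vdr over Rxra plus Rxrb (ratio of CPM per kilobase, right) in each tumor, with points numbered by replicate and bars showing the mean and SD of 4 tumors. The Rxra share stayed between 42.8% and 56.5%, and the ratio ran from 0.207 to 0.376 with EtOH and from 0.388 to 0.705 with calcipotriol.

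The enzymes that make the active hormone were expressed at low levels. Cyp27a1, a mitochondrial sterol hydroxylase that also works in bile acid synthesis, was the highest of them. It was at 5.30, 2.87, 2.07 and 1.63 CPM in EtOH 1 to 4 and 4.01, 2.28, 1.25 and 1.57 CPM in calcipotriol 1, 5, 6 and 7. Replicate 1 was the highest in each group and the groups overlapped widely. The log2 fold change was -0.38 (-1.53 to 0.78, edgeR adjusted p = 0.754), and it turned to 0.062 without EtOH 1 and 0.31 without EtOH 1 and 2. The interval leaves room for a difference of more than 1 log2 unit in the lower direction.

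Cyp2r1, the main vitamin D 25-hydroxylase of the liver, and Cyp27b1, the enzyme that completes the active hormone, had too few counts to pass edgeR's filter on low counts. Cyp2r1 had 0, 3, 6 and 7 counts in EtOH 1 to 4 and 19, 7, 1 and 6 counts in calcipotriol 1, 5, 6 and 7. The groups overlapped, and the exact permutation test of log2 CPM (2-sided) gave p = 0.371. Cyp27b1 had 3, 0, 9 and 0 counts in the EtOH-treated tumors, and it had 12, 12, 17 and 3 counts in calcipotriol 1, 5, 6 and 7. Calcipotriol 1, 5 and 6 exceeded every EtOH-treated tumor, and calcipotriol 7 did not. The exact permutation test gave p = 0.0857, where 0.0286 is the smallest p that 4 tumors against 4 can give, and edgeR without the filter gave a log2 fold change of 1.90 (-1.15 to 4.94, adjusted p = 0.491). At most 17 counts per tumor stand behind these values, so a difference of several fold could not be told from counting and tumor spread.

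Cyp24a1, which breaks down active vitamin D and calcipotriol and is the best known transcriptional target of Vdr, was detected only in calcipotriol-treated tumors, and only in 3 of them. It had 0 counts in EtOH 1, 2, 3 and 4, and 0, 130, 36 and 52 counts in calcipotriol 1, 5, 6 and 7, that is 5.94, 1.73 and 2.204 CPM in the tumors with counts. The tumor without any was calcipotriol 1, the library that stood apart from the others of its group and had the lowest Vdr among them. Set against a floor of 3 counts per EtOH library, the mean with calcipotriol was at least 18.1-fold higher, at least 24.1-fold higher without calcipotriol 1 and at least 9.61-fold higher without calcipotriol 5, the tumor with the most counts. Because it had counts in 3 tumors, Cyp24a1 did not pass the filter. edgeR without the filter gave a log2 fold change of 8.79, which depends on the prior count, with an adjusted p of 0.0135 over 23761 genes, of which 1.93% were past both thresholds (1.04% in the higher direction). Without calcipotriol 1 the edgeR adjusted p was 0.00772, in a fit that put 4.33% of genes past both thresholds. That fit left out the only calcipotriol-treated tumor at 0, and Cyp24a1 passed its filter only through calcipotriol 5, 6 and 7. This adjusted p is therefore no separate support for a difference. The call was lost in the other fits that kept the gene: with 1 EtOH-treated tumor left out the edgeR adjusted p was 0.112 to 0.140, and without EtOH 1 and 2 or without EtOH 3 and 4 it was 0.137 and 0.112. The exact permutation test over all 8 tumors gave p = 0.143, since calcipotriol 1 had the value of the EtOH-treated tumors.

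Over the whole table, 7 of 55414 genes (0.0126%) had 0 counts in every EtOH-treated tumor and at least 30 counts in at least 3 calcipotriol-treated tumors, and 0 genes had the reverse pattern. This criterion was set after the Cyp24a1 counts were seen. The other 6 genes were Rnase2a, Klk6, Fut9, Foxr2, Foxd1 and Ugt1a6b, and in contrast to Cyp24a1 each of these had counts in calcipotriol 1, from 10 for Rnase2a to 312 for Foxd1. Cyp24a1 lies on chromosome 2 (170482708 to 170497145, minus strand, GRCm38) and its exons share 83 bases with those of Pfdn4 on the opposite strand. Whether the counting used strand is not stated. Pfdn4, a prefoldin subunit, had 341 to 739 counts in the EtOH-treated tumors in which Cyp24a1 had 0, and its own log2 fold change was 0.24 (edgeR adjusted p = 0.60). Skin is a tissue that responds to topical calcipotriol, and markers of its cells were read beside Cyp24a1. Of 8 keratinocyte markers Flg, Krt2 and Lce1a1 were at 0 in all tumors, and Krt1, Ivl and Krtdap had 0 counts with EtOH and at most 7 counts in a calcipotriol-treated tumor. The summed level of the 8 was 9.80 to 13.6 CPM with EtOH and 3.97 to 15.2 CPM with calcipotriol, and it came mostly from Lor and Krt10.

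Markers of basal epithelium, which skin and mammary gland share, followed Cyp24a1 from tumor to tumor only in part. Of 5 such markers 2 were past both thresholds, both higher: Krt14 rose from a mean of 0.686 to 25.4 CPM (edgeR adjusted p = 0.0336) and Trp63 from 0.802 to 4.78 CPM (adjusted p = 0.0333). Krt17 had 0, 0, 3 and 33 counts in EtOH 1 to 4 and 0, 123, 110 and 76 counts in calcipotriol 1, 5, 6 and 7 (edgeR adjusted p = 0.301), so like Cyp24a1 it had 0 counts in calcipotriol 1. Krt14 was at 1.59, 10.2, 46.3 and 43.4 CPM in calcipotriol 1, 5, 6 and 7, so not highest in calcipotriol 5. Trp63 was at 3.496, 7.54, 4.23 and 3.86 CPM in these tumors, highest in calcipotriol 5 like Cyp24a1. In calcipotriol 1, without Cyp24a1 counts, Trp63 was above every EtOH-treated tumor (at most 1.17 CPM). Krt14 was there close to the highest EtOH-treated tumor (1.499 CPM). Krt5 and Acta2 had negative log2 fold changes (-0.27 and -0.54) and did not pass. The 5 summed to 21.7 to 55.1 CPM with EtOH and 39.2 to 82.3 CPM with calcipotriol. The part of basal or skin cells in the Cyp24a1 counts was not tested.

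Trpv6, an epithelial calcium channel and target of the receptor in gut, was at the floor of detection in both groups. It had 1, 0, 13 and 0 counts in EtOH 1 to 4 and 5, 0, 6 and 5 counts in calcipotriol 1, 5, 6 and 7. The highest tumor was EtOH 3, and calcipotriol 5, with the most Cyp24a1, had 0. The exact permutation test gave p = 0.486, and a difference was not detectable at this depth.

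**Figure D4:**
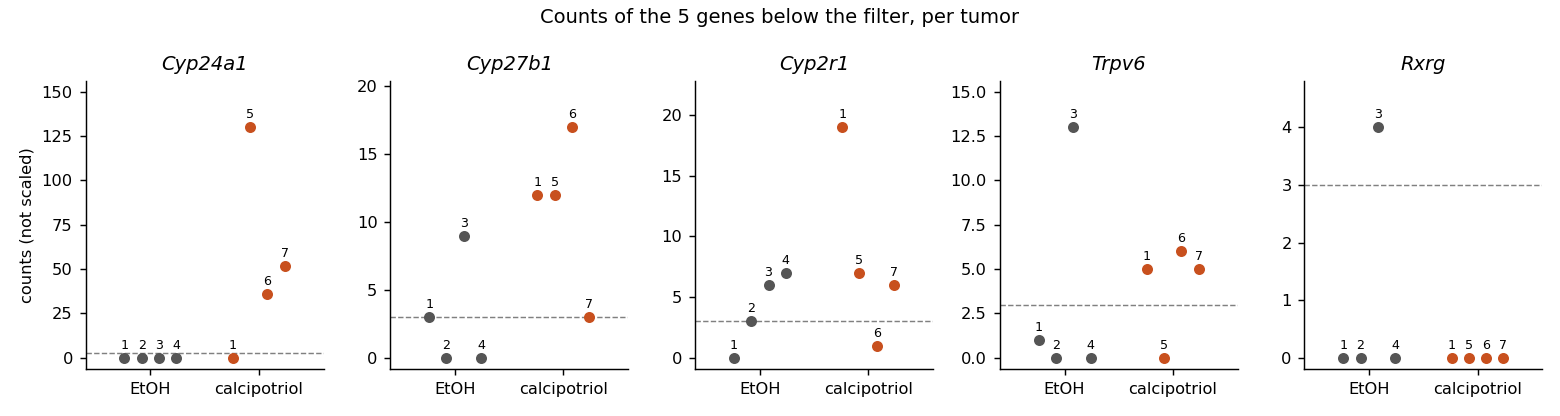
Deposited counts (rounded, not scaled) of Cyp24a1, Cyp27b1, Cyp2r1, Trpv6 and Rxrg in each tumor, numbered by replicate, with a dashed line at 3 counts; each panel has its own axis. Cyp24a1 had 36 to 130 counts in calcipotriol 5, 6 and 7 and 0 in the other 5 tumors, and Cyp27b1 had 12 to 17 counts in calcipotriol 1, 5 and 6.

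Pdia3 was by far the most abundant of the 10 genes. It was at 755, 905, 879 and 871 CPM in EtOH 1 to 4 and at 769, 702, 640 and 656 CPM in calcipotriol 1, 5, 6 and 7. The groups overlapped only because EtOH 1 was below calcipotriol 1. The log2 fold change was -0.30 (-0.58 to -0.02, edgeR adjusted p = 0.241), and it was negative in all other fits, from -0.36 to -0.26. Exons of Pdia3 share 18 bases with Catsper2 on the opposite strand, which had at most 70 counts in a tumor.

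Of the 10 genes, 5 passed the filter (Vdr, Rxra, Rxrb, Cyp27a1 and Pdia3), and 0 of these 5 were past both thresholds in edgeR, DESeq2 or limma-voom, beside 2.02% of all 14458 genes tested in edgeR. At an unadjusted p under 0.05 there were 3 of 5 (Vdr, Rxra and Pdia3), beside 18.4% of all genes. In 0 of the 5 did the groups fail to overlap, beside 12.5% of all genes (6.32% higher and 6.16% lower with calcipotriol). Per kilobase and averaged over the 8 tumors, Pdia3 was at 246 ± 33.0 CPM, above all others in every tumor. Rxrb (13.2 ± 2.43), Rxra (11.5 ± 1.79) and Vdr (10.5 ± 3.77) followed with overlapping ranges. The order of these 3 differed by group: with EtOH the means per kilobase were 13.8 for Rxrb, 12.8 for Rxra and 7.88 for Vdr, and with calcipotriol they were 13.1 for Vdr, 12.6 for Rxrb and 10.1 for Rxra. Cyp27a1 (1.21 ± 0.641) lay below these in all 8 tumors. Cyp24a1 (0.347 ± 0.591), Cyp2r1 (0.123 ± 0.110), Cyp27b1 (0.1204 ± 0.114), Trpv6 (0.0405 ± 0.0475) and Rxrg (0.00882 ± 0.0249) came last, and the ranges of neighbours in this order overlapped.

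Genes that follow the receptor's activity were taken from a list of 21 known targets in various tissues, of which 13 were tested, 1 was past both thresholds in the higher direction and 0 in the lower, beside 1.07% and 0.948% of all genes. Of the 13, 8 had positive and 5 had negative log2 fold changes, where 52.1% of all genes tested were positive. The median log2 fold change of the 13 was 0.45, beside 0.02 for all genes tested. The gene that passed was Tslp, an epithelial cytokine that calcipotriol is known to induce in skin and that was chosen for the list with that in view. The paper had already reported higher Tslp with calcipotriol from this RNA-Seq, so its call is not independent of the choice of list. The other 12 tested targets did not pass. Tslp was at 7.78, 7.11, 7.90 and 9.04 CPM in EtOH 1 to 4 and at 13.5, 52.2, 24.1 and 22.6 CPM in calcipotriol 1, 5, 6 and 7. All calcipotriol-treated tumors were higher. Its log2 fold change was 1.82 (1.03 to 2.60, edgeR adjusted p = 0.0276). As with Cyp24a1, calcipotriol 5 was the highest and calcipotriol 1 the lowest of the group. The Tslp call was lost in limma-voom and with any EtOH-treated tumor, calcipotriol 6 or calcipotriol 7 left out. It was also lost without EtOH 1 and 2 (1.73, edgeR adjusted p = 0.107) and without EtOH 3 and 4 (1.91, adjusted p = 0.0609), while the log2 fold change stayed above 1 in all these fits.

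Spp1, which encodes osteopontin and has a receptor binding site known from bone, was the most abundant target, at 10240, 12180, 11610 and 11670 CPM with EtOH and 12260, 22530, 23030 and 23370 CPM in calcipotriol 1, 5, 6 and 7. The groups did not overlap, but calcipotriol 1 was close to the EtOH-treated tumors. Its log2 fold change was 0.83 (edgeR adjusted p = 0.0715), and without calcipotriol 1 it was 1.01 (adjusted p = 0.00407), past both thresholds. Gadd45a, a growth arrest gene, had a log2 fold change of 0.45 (edgeR adjusted p = 0.381). Of the targets named only after their values were seen, Igfbp3 (-1.07, edgeR adjusted p = 0.107) and Cd14 (-0.84, adjusted p = 0.0802) had the most negative fold changes, and the calcium pump Atp2b1 (0.53, adjusted p = 0.0771) did not overlap between groups. Igfbp3 and Cd14 depended on the EtOH-treated pairs in opposite ways. Without EtOH 1 and 2, Cd14 was at -1.18 (edgeR adjusted p = 0.022), past both thresholds, and Igfbp3 at -0.58 (adjusted p = 0.369). Without EtOH 3 and 4, Igfbp3 was at -1.43 (edgeR adjusted p = 0.0416), past both thresholds, and Cd14 at -0.38 (adjusted p = 0.246). Without calcipotriol 1, Igfbp3 also passed (-1.34, edgeR adjusted p = 0.0322). Macrophages, in which Cd14 is a surface marker, also had lower markers: the 9 listed summed to 2162 to 2614 CPM with EtOH and 971 to 1895 CPM with calcipotriol, 0 of them at 0 in all tumors, and 2 of the 9 were past both thresholds, both lower. By immunofluorescence, in tumors of IgG-treated mice, the paper reported more macrophages with calcipotriol. The RNA sums here are therefore not a count of macrophages. The part of macrophages in these values was not tested. Other calcium transport targets were scarce. S100g, the intestinal calcium binding protein, had 0 counts with EtOH and 0, 3, 9 and 6 counts in calcipotriol 1, 5, 6 and 7, and Calb1 and Trpv5 were at 0 in all tumors. Tnfsf11, which encodes RANKL, had 8, 0, 39 and 2 counts with EtOH and 7, 104, 50 and 80 counts in calcipotriol 1, 5, 6 and 7 (edgeR adjusted p = 0.307). In Cyp24a1, S100g and Tnfsf11 alike, calcipotriol 1 was in the range of the EtOH-treated tumors.

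**Figure D5:**
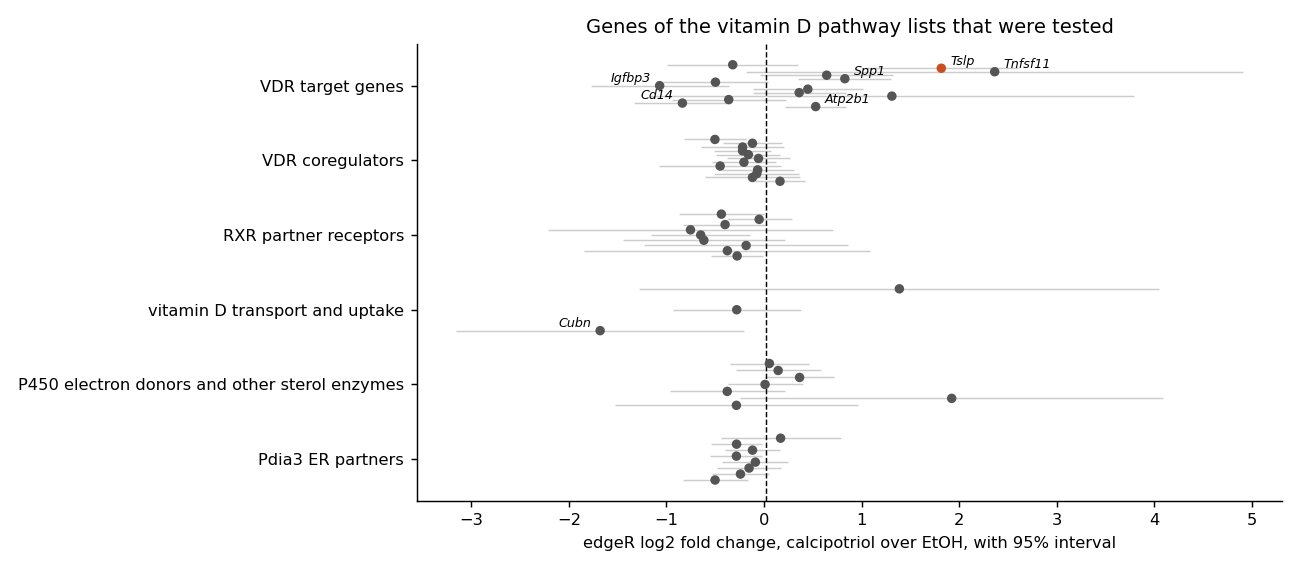
edgeR log2 fold change, calcipotriol over EtOH, of each tested gene in 6 pathway lists, with 95% intervals as grey bars; the dashed line is the median of all genes tested (0.02) and orange marks the gene past both thresholds. Tslp (1.82) is the orange point, and all 9 RXR partner receptors lie left of the dashed line.

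Proteins that act on or beside the receptor pair showed 0 calls. All 12 coregulators in the list were tested, 11 of them had a negative log2 fold change (47.9% of all genes did) and the median was -0.14. Smarca4, an abundant chromatin remodeler, had a log2 fold change of -0.12 (edgeR adjusted p = 0.696). Of 15 other nuclear receptors that pair with RXR, or may compete for it, 9 were tested. All 9 had a negative log2 fold change, with a median of -0.40, and 0 were past both thresholds. Rarg, a retinoic acid receptor, had -0.05 (edgeR adjusted p = 0.901) and Nr4a1, an immediate early receptor, -0.18 (adjusted p = 0.879).

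Of 5 genes for transport and uptake of vitamin D, 3 were tested and 0 passed. The endocytic adaptor Dab2 had a log2 fold change of -0.28 (edgeR adjusted p = 0.669), and Cubn, a receptor for the vitamin D binding protein complex in kidney, -1.68 (adjusted p = 0.215) at 0.170 to 4.28 CPM. Of 8 electron donors and other sterol enzymes, 7 were tested and 0 passed, with a median of 0.06. Por, which hands electrons to microsomal P450 enzymes such as Cyp2r1, had a log2 fold change of 0.06 (edgeR adjusted p = 0.907), and the sterol isomerase Ebp 0.01 (adjusted p = 0.982). Of 8 partners of Pdia3 in the endoplasmic reticulum, all were tested, 0 passed, and 7 had negative values like Pdia3, with a median of -0.20. The chaperone Hsp90b1 had -0.15 (edgeR adjusted p = 0.634) and the isomerase P4hb -0.28 (adjusted p = 0.246).

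The genes whose log2 CPM over the 8 tumors was most like that of 4 of the set were read out as a description, among tested genes averaging 50 counts or more. For Vdr they were Gm44103 (Pearson r = 0.98), Tmem87b (0.98) and Aak1 (0.98). For Cyp24a1 they were Klhl33 (r = 0.99), Tmem176b (0.99) and Gpnmb (0.99), with Tmem176b at a mean of 193 CPM with EtOH and 302 CPM with calcipotriol (log2 fold change 0.65, edgeR adjusted p = 0.081). Klhl33 rose from 2.26 to 31.2 CPM (log2 fold change 3.78, edgeR adjusted p = 0.0319) and Gpnmb from 10.9 to 45.9 CPM (2.08, adjusted p = 0.0474). Klhl33, Tmem176b and Gpnmb were picked for following Cyp24a1, which had counts only with calcipotriol. Their adjusted p values are therefore not independent tests of a group difference. For Cyp27a1 they were Mroh1, Plod1 and Serinc2 (r = 0.95 each), and for Cyp27b1 2310030G06Rik, Mrpl46 and Panx1 (r = 0.95 to 0.96). These 8 points share their libraries and groups, and Cyp24a1 was at 0 in 5 of them.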

How the data were processed

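Tumor RNA was sequenced in bulk, 1 library from each of 4 EtOH- and 4 calcipotriol-treated tumors. The authors deposited estimated counts (expected counts) per gene, without normalization between tumors; the submitters' processing notes name STAR 2.5.3, RSEM 1.3.1, DESeq2 1.24.0 and GRCm38. The use of strand in counting is not given in the sources used here. From 4.2% to 6.22% of a tumor's values were not whole, and they were rounded. Identifiers were matched to GENCODE M21 (52081 of 55414). The study used limma with the thresholds applied here; the main test here was edgeR 4.0.16 (R 4.3.3; filterByExpr, TMM, glmQLFit, glmQLFTest), with Benjamini-Hochberg adjustment over 14458 genes, adjusted p under 0.05 and a log2 fold change of 1 or more in either direction. The plan of the tests had assumed whole counts.

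Genes removed by the filter were compared with 2-sided exact permutation tests of log2(CPM + 0.1) over 70 arrangements, and with edgeR without the filter. Library totals of 19685419 to 25084713 put 3 counts, the limit that a count of 0 allows, at 0.119 to 0.146 CPM. These floors cover counting error only, whereas the edgeR intervals also include the spread between tumors. Nothing in the labels says that libraries of a group share an animal; p-values measure the spread between these tumors. Alternatives were DESeq2 size factors, no filter, at least 10 counts in every tumor, DESeq2 1.42.0, limma-voom (limma 3.58.1), no fold minimum, a pseudocount of 1, longest transcript lengths and each tumor left out. Leaving out EtOH pairs was added after seeing the data. On simulated data in which 200 genes differed by 2 log2 units, edgeR recovered 192 with 5 false calls among 14274 genes. The simulated tumors were independent and every gene had the same dispersion. Smaller differences and the uneven libraries seen here were not covered. Promoter windows came from RefSeq (GRCm38.p6).

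The 10 genes and all gene lists were chosen with earlier results of these data known. Named genes are these 10, in each list those past both thresholds and the 2 with the highest mean CPM, and the 3 most correlated genes for Vdr, Cyp27b1, Cyp27a1 and Cyp24a1. Of the genes that this rule names, 1 is not reported here.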

Additional observations from a re-analysis of the deposited data

Results flagged for a closer look

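In 122 groups of 4 tumors (62 genes of the set and its pathway lists), 9 held a tumor far from the other 3 by Dixon's 95% criterion, where chance alone flags about 1 in 20 groups, or 6.1 here. Of these, 2 were in the set itself. Vdr in calcipotriol 1 was 56.9 CPM against 77.7 to 81.6 CPM in the others of its group. Rxrg in EtOH 3 was 0.162 CPM (4 counts) against 0. With the other 3 tumors at 0, any count would be flagged, so this flag is not informative.

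Calcipotriol 1 was the distant tumor in 4 more genes. The target Spp1 was 12260 CPM there against 22530 to 23370 CPM, the cell cycle inhibitor and target Cdkn1a 114 CPM against 59.9 to 62.5 CPM, the retinoic acid receptor Rarg 204 CPM against 134 to 144 CPM, and the Pdia3 partner Tapbp, tapasin of the peptide loading complex, 353 CPM against 146 to 152 CPM. The remaining 3 were single values. The coactivator Ncoa2 was 34.2 CPM in EtOH 4 against 48.2 to 49.8 CPM, the mediator subunit Med1 28.8 CPM in calcipotriol 5 against 36.8 to 38.2 CPM, and the chaperone Hsp90b1 1049 CPM in calcipotriol 5 against 842 to 862 CPM.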

How the results depend on the processing

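Of the 5 tested genes, Vdr, Rxra and Pdia3 kept their direction in all 15 alternative fits; Vdr passed both thresholds in 1 of them, without EtOH 1 and 2 (1.31), and the others in 0. With each tumor left out, Rxrb ranged from -0.25 to 0.032 and Cyp27a1 from -0.80 to 0.062, both turning positive without EtOH 1, and Cyp27a1 was 0.31 without EtOH 1 and 2. Genes of the set past both thresholds numbered 0 with all tumors, 1 without the filter on low counts (Cyp24a1), 0 to 1 with each tumor left out (Cyp24a1, without calcipotriol 1) and 1 without EtOH 1 and 2 (Vdr). All genes past both thresholds numbered 292, and 644 with the DESeq2 test, 458 without the filter, 113 to 642 with each tumor left out (642 without calcipotriol 1), 177 without EtOH 1 and 2 and 604 without EtOH 3 and 4. Among receptor targets the 1 call (Tslp) became 2 with the DESeq2 test (Tslp and Igfbp3), 0 with limma-voom, 2 without the filter (Tslp and Igfbp3) and 0 to 3 with each tumor left out (3 without calcipotriol 1: Tslp, Spp1 and Igfbp3); it stayed 1 without EtOH 1 and 2 (Cd14, lower) and without EtOH 3 and 4 (Igfbp3, lower), with Tslp lost in both. Among RXR partners 1 gene (Nr4a2, lower) passed without EtOH 3 and 4. The Rxra share was 41.1% (EtOH) and 37.3% (calcipotriol) with longest transcript lengths. Apart from what the settings' own construction shows (fewer tumors, more genes), the cause was not tested. No paired analysis was possible because the groups share only 1 replicate number. Depth limits Cyp27b1, Cyp2r1, Trpv6 and Rxrg, whose counts stayed at or below 19 per tumor.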

Other observations

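Some genes beside the pathway were separated by group, or nearly so, without a call past both thresholds, and they are named after their values were seen. Over all genes tested, the groups did not overlap in 6.32% (higher with calcipotriol) and 6.16% (lower). Fdx1, the ferredoxin that feeds electrons to the mitochondrial enzymes Cyp27a1, Cyp27b1 and Cyp24a1, was at 14.6 to 21.01 CPM with EtOH and 21.9 to 24.1 CPM with calcipotriol (log2 fold change 0.37, edgeR adjusted p = 0.253). Cyp3a11, a P450 enzyme of drug and vitamin D breakdown, had 7, 0, 12 and 2 counts with EtOH and 14, 18, 11 and 39 counts in calcipotriol 1, 5, 6 and 7 (edgeR adjusted p = 0.327). Its relative Cyp3a13 had 0 counts in all EtOH-treated tumors and 0, 12, 11 and 1 counts in calcipotriol 1, 5, 6 and 7, too few to be tested. As for Cyp24a1, calcipotriol 1 had none.

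In the lower direction, the coregulator Tob2 was at 44.99 to 57.0 CPM with EtOH and 29.5 to 39.5 CPM with calcipotriol (log2 fold change -0.50, edgeR adjusted p = 0.0941). Calreticulin (Calr), which works with Pdia3 on newly made glycoproteins, was at 547 to 626 CPM with EtOH and 362 to 536 CPM with calcipotriol (-0.50, edgeR adjusted p = 0.109). In both genes the groups did not overlap, and calcipotriol 1 was the calcipotriol-treated tumor nearest to the EtOH-treated ones. In the pathway lists P4hb, Pdia6, Cubn and Cd14 were also lower without overlap.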
